A study of Mus musculus with 4 samples.

Results

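The genes described here make, move and break down retinoic acid, and the measurement is NR2F1 binding around them in mouse rhombomere 4 (r4), the hindbrain segment from which facial motor neurons arise. The 10 genes were chosen by function: the retinaldehyde dehydrogenases Aldh1a1, Aldh1a2 and Aldh1a3, the retinaldehyde reductase Dhrs3, the retinol-binding protein receptor Stra6, the retinoic acid binding proteins Crabp1 and Crabp2, and the Cyp26 hydroxylases Cyp26a1, Cyp26b1 and Cyp26c1. Peaks called in 4 libraries were merged wherever they overlapped by 1 bp, and every merged region within 20 kb of a protein-coding gene body was assigned to that gene (mm10). This gave 128 regions for the 10 genes out of 263639 in all, and 30 of the 128 were among the 35770 regions in which the genotypes could be tested.

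The study asked how a single-nucleotide variant in a silencer near Gata2 affects r4 motor neurons. It profiled NR2F1 by single-cell CUT&Tag, in which an antibody tethers the transposase Tn5 to chromatin so that cut sites accumulate where the protein sits. The 4 libraries came from pooled embryos of embryonic day 10.5, all of them carrying the Isl1MN-GFP transgene, which labels motor neurons. WT replicates 1 and 2 came from 26 embryos each, and Fam5snv/snv replicates 1 and 2, homozygous for the knocked-in variant, came from 8 and 16 embryos. Cells were sorted on GFP, but the gate was opened to GFP-negative cells at the end of each sort, so the libraries are r4 cells enriched for motor neurons rather than a pure population. Each library is a pool, and differences between embryos cannot be seen. In pooled cells, fewer bound cells and less binding per cell cannot be told apart.

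Retinoic acid is made from retinol in 2 oxidation steps, and the Aldh1a enzymes carry out the second. Cells take up retinol through STRA6, DHRS3 returns retinaldehyde to retinol, the CRABP proteins carry retinoic acid within the cell, and the CYP26 enzymes inactivate it. In the hindbrain, supply from the neighbouring mesoderm and local breakdown by CYP26 enzymes set the retinoic acid exposure of each rhombomere. NR2F1 (COUP-TFI) is an orphan nuclear receptor that binds direct repeats of the core AGGTCA, the same kind of element that retinoic acid receptors use.

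The Fam5snv/snv libraries were deeper than the WT libraries. The WT libraries held 3083946 and 3580517 cut sites in 2572 and 1377 barcodes, and the Fam5snv/snv libraries held 8967987 and 10341894 in 2274 and 2740 barcodes. WT replicate 1 had 42168 called peaks over 31.0 Mb, against 137996 to 170993 peaks over 93.1 to 143 Mb in the other libraries. Because peaks were called and counted in each library separately, cut sites outside a library's own peaks were not counted for it, a wider peak collects more cut sites, and a region without a peak is missing rather than 0. Any pair of libraries had 3 to 12 barcodes in common, up to 0.799% of those in the smaller. Signal is given as CPM, cut sites scaled to 1000000 in each library's TMM-normalized total over the tested regions. No control antibody library was used here, so signal was not set beside a background level. How much of it is background was not tested. Of the 10 motor neuron genes checked, all 10 had a tested transcription start site (TSS) region, and their summed signal was 971 to 1124 CPM in the 4 libraries. Tested TSS regions were also present for 9 of 10 neural crest and mesenchyme genes (245 to 299 CPM summed), 4 of 10 endothelial genes (143 to 213) and 4 of 10 blood genes (61.0 to 95.7). These sums cover differing numbers and lengths of regions. Per kb of called peak the list medians lay closer, at 19.4 (motor neuron), 11.5 (crest and mesenchyme), 12.8 (endothelial) and 11.0 CPM (blood). Over all protein-coding TSS regions the median was 17.9 CPM per kb. Over all 21829 protein-coding genes, 59.3% had a tested TSS region. The endothelial sum was 143 and 160 CPM in WT and 213 and 204 in Fam5snv/snv, and its part in the results below was not tested. No library had a TSS peak at Tek, Tie1, Gata1, Hba-a1, Hbb-bs or Ptprc. A TSS peak in at least 1 library was present for 74.8% of all protein-coding genes.

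The sequences under the retinoid peaks were searched first, on both strands, for direct repeats of a 6-base core with spacers of 0 to 8 bases. The core was AGGTCA or a variant of it, namely AGTTCA, the variant form GGGTCA, or else the form GGTTCA. A repeat with a 5-base spacer is written DR5. The 128 regions, 181.897 kb in total, held 153 copies of AGGTCA, 476 copies of any of the 4 cores and 17 direct repeats. A selection is shown: repeats inside a called peak of at least 3 libraries, though not every such repeat, and the proximal Cyp26a1 site. Each is given 5′ to 3′ on its own strand with the cores in capitals and 10 flanking bases on either side, and the coordinates (mm10) are those of the repeat alone.

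Cyp26a1 DR5, chr19:37695909-37695925, plus strand: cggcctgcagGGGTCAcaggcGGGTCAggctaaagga
Cyp26a1 DR5, chr19:37697776-37697792, minus strand: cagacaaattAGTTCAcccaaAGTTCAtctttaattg
Crabp2 DR2, chr3:87947525-87947538, plus strand: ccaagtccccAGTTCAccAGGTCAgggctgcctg
Crabp1 DR1, chr9:54759817-54759829, minus strand: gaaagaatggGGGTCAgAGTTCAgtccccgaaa
Aldh1a3 DR0, chr7:66427319-66427330, minus strand: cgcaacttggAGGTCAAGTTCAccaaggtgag
Dhrs3 DR8, chr4:144894882-144894901, minus strand: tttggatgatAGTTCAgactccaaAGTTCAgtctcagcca
Stra6 DR0, chr9:58053427-58053438, plus strand: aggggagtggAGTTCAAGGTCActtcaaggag
Stra6 DR3, chr9:58086618-58086632, plus strand: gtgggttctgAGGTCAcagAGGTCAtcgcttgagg
Stra6 DR3, chr9:58041476-58041490, minus strand: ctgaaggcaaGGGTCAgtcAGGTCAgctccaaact
Stra6 DR6, chr9:58116382-58116399, minus strand: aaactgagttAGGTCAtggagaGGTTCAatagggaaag

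Inside a peak of all 4 libraries lay 5 of the 17 repeats: Crabp2 DR2, Aldh1a3 DR0, Crabp1 DR1, Stra6 DR0 and the Stra6 DR3 on the plus strand. The Crabp2 repeat is 1141 bases upstream of the TSS. The Aldh1a3 repeat is 198 bases inside the gene, in coding sequence. The Stra6 DR3 on the plus strand is also in coding sequence, where the Ccdc33 and Stra6 gene models overlap. The Stra6 DR3 on the minus strand lies in Ccdc33 and Gm16130, outside the Stra6 gene model and 37.8 kb from the nearest Stra6 TSS. At Cyp26a1, whose product clears retinoic acid, a DR5 lies 1889 bases upstream of the annotated start and another 22 bases upstream. The 240 bases that end at the Cyp26a1 TSS (chr19:37697558-37697797, plus strand, RefSeq GRCm38.p6) show the proximal repeat, which reads TGAACT on this strand, close to the start of transcription.

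Cyp26a1 promoter: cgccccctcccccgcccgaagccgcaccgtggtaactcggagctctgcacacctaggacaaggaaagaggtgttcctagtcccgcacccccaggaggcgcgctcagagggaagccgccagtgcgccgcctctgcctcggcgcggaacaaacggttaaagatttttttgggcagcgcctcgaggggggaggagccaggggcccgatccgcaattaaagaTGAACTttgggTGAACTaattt

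Among 32851 RefSeq promoter windows of 300 bases, 32 (0.0974%) held a DR5 of these cores, and Cyp26a1 was the only one of the 14 windows of the 10 genes that did. The distal Cyp26a1 DR5 lay inside the peaks of WT replicate 2 and both Fam5snv/snv libraries. The proximal DR5 lay inside the peak of Fam5snv/snv replicate 2 alone, whereas the WT replicate 2 peak began at the TSS itself. In windows of 500 bp around the midpoints of the tested regions, AGGTCA was present in 10 of the 30 retinoid regions (33.3%) and in 33.7% of all tested regions, a close share. DR0 was present in 1 of the 30 windows and DR1 in 1, against 0.632% and 1.61% of all tested windows, and no other spacing occurred in them. A match describes letters and is not evidence of binding.

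How many libraries called a peak varied widely across the genes. Of the 128 regions, 59 had a peak in 1 library, 17 in 2, 22 in 3 and 30 in all 4. The share in all 4 was 23.4%, against 13.6% of all merged regions, near a gene or not. Of those 30, 15 lay in the Stra6 window, which held 37 of the 128 regions. WT replicate 1 called 31 of the 128, and the other libraries 82, 76 and 90. Among the 22 regions with a peak in 3 libraries, WT replicate 1 was the one without in 21, against 96.5% of all such regions in the series. The 59 regions of a single library were weak, with at most 49 cut sites.

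**Figure D1:**
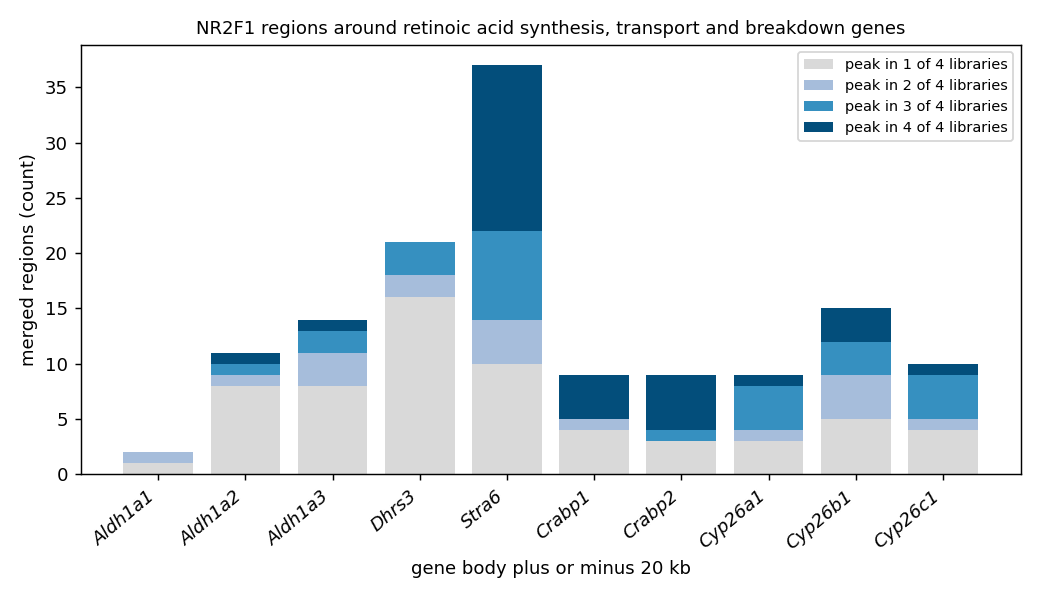
Merged NR2F1 regions within 20 kb of each gene, stacked by the number of libraries (1 to 4) with a called peak. Stra6 had 37 regions, 15 of them in all 4 libraries, while Aldh1a1 had 2 and Dhrs3 21, none in all 4.

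Regions called in all 4 libraries lay mostly in the windows of the transport genes, which also take in neighbouring genes. Stra6 had 15 tested regions of 37, Crabp2 5 of 9, Crabp1 4 of 9 and Cyp26b1 3 of 15, while Aldh1a2 and Aldh1a3 had 1 each of 11 and 14. Cyp26a1 and Cyp26c1 lie next to each other, share 9 regions and had the same single tested region. Aldh1a1 (2 regions) and Dhrs3 (21) had none. Over all protein-coding genes the median was 2 tested regions per gene window and the 90th percentile 5. The Stra6 count needs the gene's position beside it: the annotated gene model spans 58063788 to 58153996 on chromosome 9 and overlaps Ccdc33 on the other strand, and 10 of the 15 tested regions overlap Ccdc33. From the first RefSeq TSS of Stra6 to the gene end there were 3 tested regions. The tested region of this window at the Islr TSS (chr9:58157368-58159220) had a called peak but 0 cut sites in WT replicate 1. In the Crabp2 window, only the tested region chr3:87944128-87953680 overlaps Crabp2. The other tested regions there lay at the Isg20l2 and Rrnad1 TSS, in an Isg20l2 intron, between genes nearest Nes, and at the Nes TSS. By position, 11 of the 30 tested regions were at a TSS, 8 in an exon, 5 in an intron and 6 between genes, against 35.4%, 15.5%, 23.4% and 25.7% of all tested regions. Of the 11 at a TSS, 7 were at a TSS of the 10 genes and 4 at that of a neighbour (Isg20l2 and Rrnad1, Nes, Ccdc33, Islr).

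**Figure D2:**
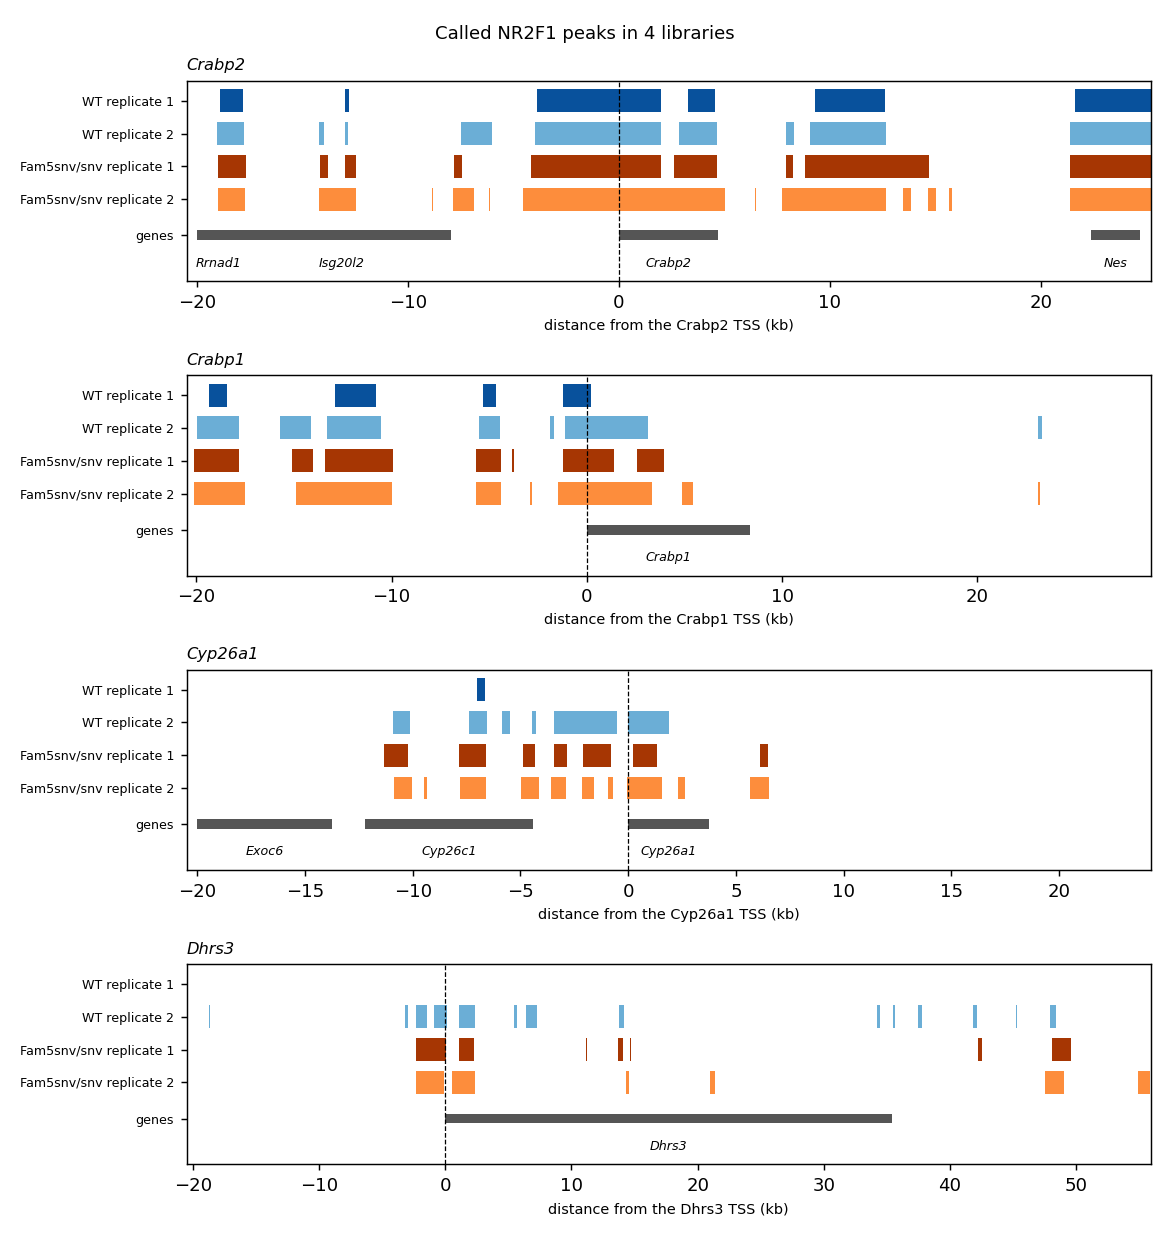
Called NR2F1 peaks (bars) in each of the 4 libraries by distance from the TSS in kb, for Crabp2, Crabp1, Cyp26a1 and Dhrs3, with protein-coding gene bodies in grey. Peaks in all 4 libraries span the Crabp2 and Crabp1 starts, whereas WT replicate 1 has no peak at the Cyp26a1 start and none anywhere in the Dhrs3 window.

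Of the 10 genes, 6 had a tested TSS region, against 59.3% of 21829 protein-coding genes. Crabp2 had the highest signal among the tested TSS regions of the 10 genes. CRABP2 delivers retinoic acid to its nuclear receptors, and the region over its gene (chr3:87944128-87953680, mm10) held 1006 and 605 cut sites in WT and 1341 and 1724 in Fam5snv/snv. After normalization these were 352, 213, 183 and 218 CPM, in the order WT replicates 1 and 2, then Fam5snv/snv replicates 1 and 2, which is the order used for every value below. The mean of 242 CPM was above 99.7% of all tested regions, and the mean of 30.5 CPM per kb of called peak was above 91.7%. The cut sites were spread over 384, 234, 499 and 656 barcodes, with at most 16 in any barcode. WT replicate 1 stood above the other libraries, and WT replicate 2 lay between the Fam5snv/snv libraries.

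Crabp1, which binds retinoic acid in the cytosol, carried its strongest region away from its promoter. The region chr9:54749044-54754844, 9904 bp upstream of the TSS and between genes, held 383, 353, 886 and 991 cut sites, or 134, 124, 121 and 125 CPM. Its mean of 36.3 CPM per kb was the highest among the 30 tested retinoid regions, above 95.1% of all tested regions. The Crabp1 TSS region (chr9:54763262-54768690) held 29.8, 35.9, 30.8 and 32.0 CPM, a mean of 10.8 CPM per kb, so per kb of called peak the upstream region was stronger in every library. The repeat with spacer 1 printed above lies between them, in a region with 60, 52, 126 and 146 cut sites.

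Cyp26b1 was the broadest of the breakdown genes. Its TSS region (chr6:84580632-84595331) ran for 14700 bp over all of its annotated starts and held 206, 293, 754 and 803 cut sites, or 72.2, 103, 103 and 102 CPM. Its mean of 11.3 CPM per kb was above 25.5% of tested regions, so a large total rested on length. WT replicate 1 was the lowest by total and the highest per kb (17.7, 11.7, 8.30 and 7.42 CPM per kb).

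The synthesis genes were low. The Aldh1a2 TSS region (chr9:71214864-71216822), at the enzyme that makes most of the embryo's retinoic acid, held 41, 50, 107 and 74 cut sites, or 14.4, 17.6, 14.6 and 9.36 CPM. The Aldh1a3 TSS region (chr7:66426558-66428325) held 28, 15, 66 and 77, or 9.81, 5.28, 9.02 and 9.74 CPM. Both were under the median of tested regions by total and per kb, above 43.3% and 22.2% of them by total. For Aldh1a1, the only TSS region was a 35 bp stretch at the annotated start 20601961. It was called in WT replicate 2 and Fam5snv/snv replicate 1 with 0 cut sites in each. That stretch allows up to 0.838 and 0.335 CPM, here of all cut sites rather than of those in tested regions (3 cut sites, counting error only). The limit takes cut sites as independent. Of the counts per peak and barcode, 76.3% in WT replicate 2 and 80.8% in Fam5snv/snv replicate 1 were even. Cut sites may thus come in pairs, which would raise the limit. At the starts 20492715 and 20492759 no library called a peak, so signal there is missing rather than 0. The other Aldh1a1 region, 11 cut sites in an intron, was called in Fam5snv/snv replicate 2 alone.

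For Stra6, the region at the first RefSeq starts (chr9:58128285-58130433) held 45, 88, 136 and 151 cut sites, or 15.8, 31.0, 18.6 and 19.1 CPM. A second region at starts further inside the gene (chr9:58132597-58137895) held 68, 66, 254 and 263, or 23.8, 23.2, 34.7 and 33.3 CPM. The highest region of the window by total, chr9:58110414-58117116, held 105, 82.7, 91.7 and 92.0 CPM. It overlaps the Ccdc33 and Stra6 gene models and an annotated exon.

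Per kb of called peak, the order of the tested TSS regions was Crabp2 (mean 30.5), the upstream Stra6 region (15.4), the downstream Stra6 region (12.3), Cyp26b1 (11.3), Aldh1a2 (11.0), Crabp1 (10.8) and Aldh1a3 (9.48). Crabp2 was the highest in each library, at 22.3 to 49.5 CPM per kb, and of the others the upstream and downstream Stra6 regions reached into that range in WT replicate 1 (25.1 and 24.5). The ranges of those 6 overlapped each other, from 5.09 to 25.1 across the libraries, and WT replicate 1 was the highest library in each of the 7.

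**Figure D3:**
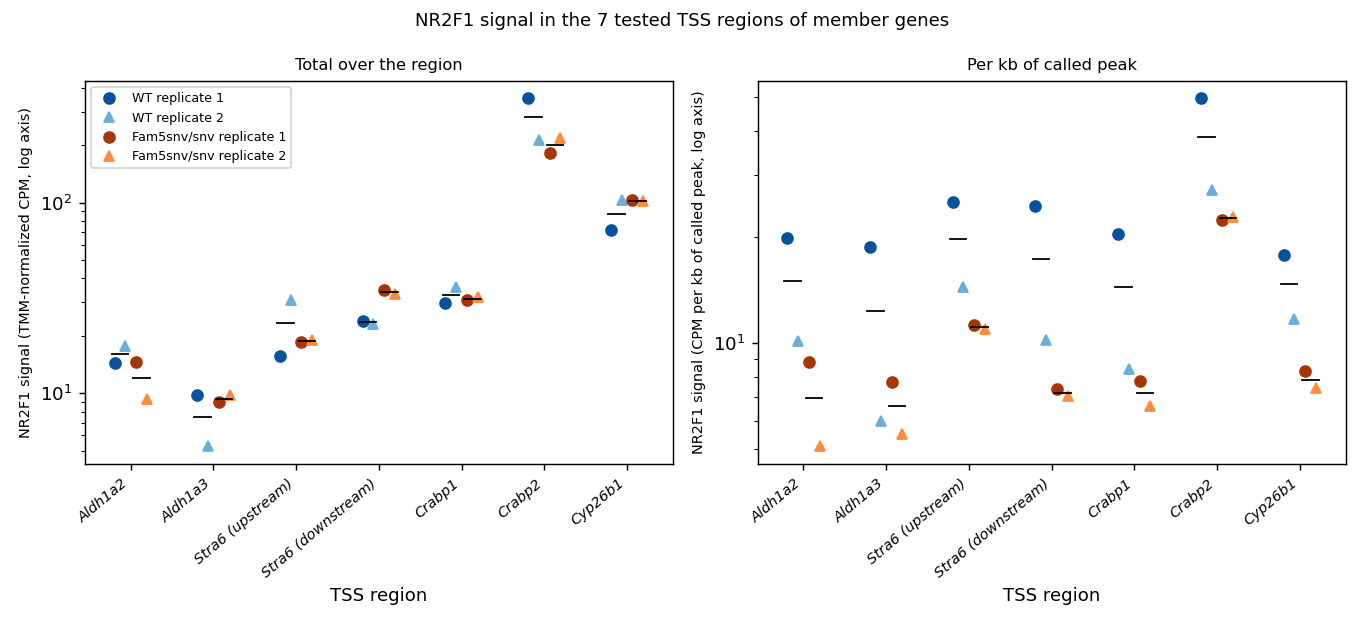
NR2F1 signal in the 7 tested TSS regions for each library, as the normalized total (left, CPM) and per kb of called peak (right), on log axes, with short bars at the mean of each genotype. By total the genotypes overlap except in the downstream Stra6 region, and per kb WT replicate 1 is the highest point at every gene.

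The other 4 genes had no tested TSS region, because WT replicate 1 called no peak there or, for Aldh1a1, almost nothing was called. Dhrs3 is induced by retinoic acid and limits its synthesis. Its upstream region (chr4:144890482-144892939) had 63 cut sites in WT replicate 2 and 158 and 169 in Fam5snv/snv, or 22.2, 21.6 and 21.4 CPM. The neighbouring region inside the gene (chr4:144893341-144895155), which holds the DR8, had 39, 73 and 79, or 13.7, 9.98 and 9.99 CPM. Per kb of called peak the upstream region had 11.7, 9.18 and 9.38 CPM and the inner one 11.2, 8.55 and 5.50. The upstream totals lay close together, and the inner region was highest in WT replicate 2 on both scales.

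Cyp26a1 totals lay further apart. The region upstream of its start (chr19:37694219-37697280), which holds the distal DR5, had 95 cut sites in WT replicate 2, 80 in Fam5snv/snv replicate 1 and 65 in Fam5snv/snv replicate 2, or 33.4, 10.9 and 8.22 CPM. WT replicate 2 called 2951 bp of it and the Fam5snv/snv libraries 1905 and 1459 bp, which left 11.3, 5.74 and 5.63 CPM per kb. Over all tested regions the median was 12.5 CPM per kb in WT replicate 2, 11.0 in Fam5snv/snv replicate 1 and 9.75 in Fam5snv/snv replicate 2. The region at the start itself (chr19:37697734-37699683) had 39, 44 and 82 cut sites, or 13.7, 6.02 and 10.4 CPM. Neither difference was tested, because regions without a peak in WT replicate 1 were outside the fit. The Cyp26c1 start (chr19:37686458-37687750) had 16, 42 and 36 cut sites, or 5.63, 5.74 and 4.55 CPM.

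The genotypes were then compared in the 30 tested regions. No retinoid region passed an adjusted p of 0.05 in either direction with edgeR's quasi-likelihood test (0 higher and 0 lower, adjusted p 0.573 to 0.973), and neither did any of the 35770 regions of the series (0% in each direction). At an unadjusted p of 0.05, 3 retinoid regions were higher in Fam5snv/snv and 0 lower, against 5.29% higher and 3.37% lower of all tested regions. DESeq2 placed 1 retinoid region above and 0 below at adjusted p 0.05, against 1.02% and 0.542% of all regions. Log2 fold changes (Fam5snv/snv over WT) of the 30 regions ran from -0.49 to 1.58 with a median of 0.16, against 0.024 over all tested regions. For a single region, exact permutation of the 4 libraries has 0.333 as its smallest p. Without WT replicate 1, 3 of the 30 passed the adjusted threshold as higher and 0 as lower, against 4.17% and 1.17% of all regions. Without WT replicate 2, 3 passed as higher and 1 as lower, against 11.4% and 6.21%.

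The 3 regions with the smallest p lay in the Stra6 and Cyp26b1 windows, none of them at a TSS. The region chr9:58051522-58056480, in an intron of Ccdc33 and 22830 bp from the nearest Stra6 start, holds the Stra6 DR0 printed above. It had 24 and 31 cut sites in WT and 216 and 223 in Fam5snv/snv, or 8.41, 10.9, 29.5 and 28.2 CPM. Both Fam5snv/snv libraries were above both WT libraries, with a log2 fold change of 1.58 ± 0.32 (SE, 95% interval 0.81 to 2.34, edgeR adjusted p = 0.573, unadjusted 0.00177). DESeq2 gave an adjusted p of 0.00538. The called length was 436 and 1886 bp in WT and 3453 and 4730 bp in Fam5snv/snv, and the signal per kb was 19.3, 5.78, 8.55 and 5.96 CPM, so per kb the genotypes overlapped. The edgeR adjusted p fell to 0.0276 when WT replicate 1 was left out and to 0.00310 when WT replicate 2 was.

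The second, chr9:58095753-58098543, overlaps the Ccdc33 and Stra6 gene models and an annotated exon. There the libraries held 34, 22, 157 and 144 cut sites, or 11.9, 7.74, 21.5 and 18.2 CPM. The log2 fold change was 1.01 ± 0.39 (SE, 95% interval 0.085 to 1.94, edgeR adjusted p = 0.573). Again the Fam5snv/snv peaks were longer, 2142 and 2119 bp against 543 and 861 bp, and per kb the values were 21.9, 8.99, 10.0 and 8.59 CPM.

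In the third, chr6:84554285-84557261, between genes and 30419 bp from the nearest protein-coding start in the Cyp26b1 window, the libraries held 45, 28, 180 and 202 cut sites, or 15.8, 9.85, 24.6 and 25.5 CPM. The log2 fold change was 0.97 ± 0.35 (SE, 95% interval 0.14 to 1.79, edgeR adjusted p = 0.573), and without WT replicate 1 the adjusted p was 0.0442. The called length was 542 and 580 bp in WT and 2024 and 2669 bp in Fam5snv/snv. Per kb the order turned round, to 29.1, 17.0, 12.2 and 9.57 CPM, with both WT libraries on top.

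At 6 of the 7 TSS regions the genotypes overlapped by total, the downstream Stra6 region being the exception. Crabp2 gave -0.49 ± 0.30 (SE, 95% interval -1.19 to 0.20, edgeR adjusted p = 0.627). That value rests on WT replicate 1: it was -0.092 (adjusted p = 0.766) without that library, and -0.81 (adjusted p = 0.000590) without WT replicate 2. Aldh1a2 gave -0.41 ± 0.41 (SE, edgeR adjusted p = 0.757), with -0.12 when Fam5snv/snv replicate 2 was left out and -0.77 when Fam5snv/snv replicate 1 was. Aldh1a3 gave 0.31 ± 0.54 (SE, edgeR adjusted p = 0.870). Cyp26b1 gave 0.22 ± 0.23 (SE, edgeR adjusted p = 0.772), Crabp1 -0.065 ± 0.24 (adjusted p = 0.945) and the Crabp1 upstream region -0.068 ± 0.20 (95% interval -0.54 to 0.40). The upstream Stra6 region gave -0.31 ± 0.38 (SE, edgeR adjusted p = 0.807). In the downstream one both Fam5snv/snv libraries were above both WT libraries, at 0.53 ± 0.24 (SE, edgeR adjusted p = 0.588), with called lengths of 974, 2285, 4710 and 4708 bp and 24.5, 10.2, 7.37 and 7.06 CPM per kb. The strongest Stra6 window region by total gave -0.031 ± 0.21 (SE, edgeR adjusted p = 0.973), and the region shared by Cyp26a1 and Cyp26c1 (chr19:37689954-37691238; 10.5, 12.3, 12.2 and 7.97 CPM) gave -0.18 ± 0.46 (adjusted p = 0.916). These intervals are wide, and a p that misses the threshold does not show equal binding.

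The length of the called peak moved with the fold change across the retinoid regions. In 10 of the 30 both Fam5snv/snv libraries were above both WT libraries, in 1 both were below and in 19 they overlapped, against 23.2% above and 21.4% below of all tested regions. Most of those 10 lay in the Stra6 window, so they are not spread evenly over the genes. The rest lay in the Crabp1, Crabp2 and Cyp26b1 windows. The called length was longer in Fam5snv/snv by a median of 1.53 on the log2 scale in those 10 and by 0.62 in the other 20, and by 1.32 in all regions of the series that were higher in this way. Per kb of called peak, 0 of the 30 were higher and 19 lower, against 0.749% and 61.7% of all tested regions. With the covered length as an offset in the edgeR fit, 0 of the 30 were higher and 2 lower at an unadjusted p of 0.05, against 0.0112% and 12.7% of all. The larger totals in Fam5snv/snv thus accompanied longer calls in deeper libraries, and depth, called length and genotype cannot be told apart here.

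**Figure D4:**
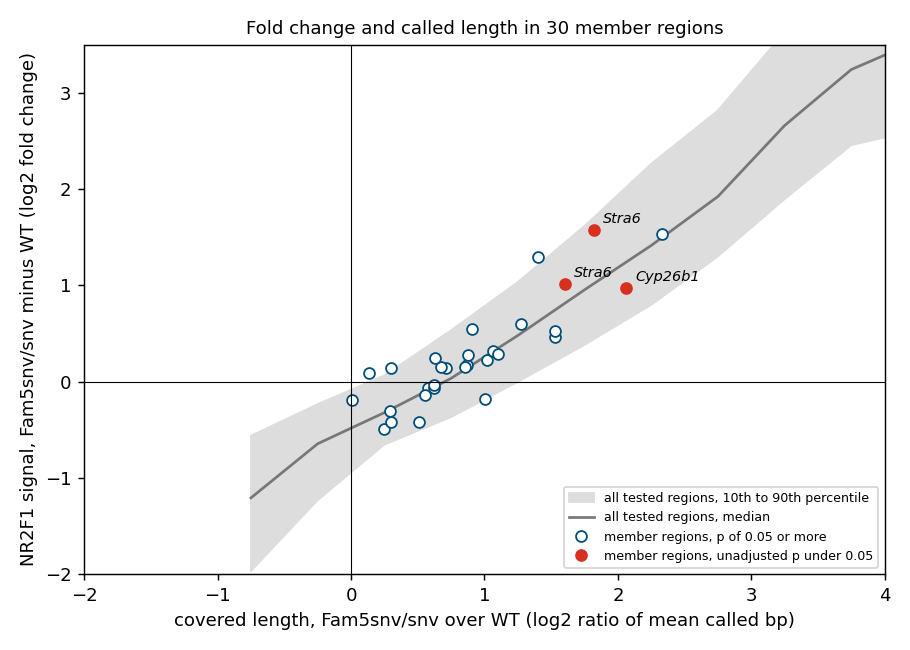
Log2 fold change of NR2F1 signal (Fam5snv/snv over WT) against the log2 ratio of mean called length for the 30 tested retinoid regions (points, filled where the unadjusted p was under 0.05), over the median (line) and the 10th to 90th percentile (band) of all 35770 tested regions in bins of that ratio. The 3 filled points, 2 of Stra6 and 1 of Cyp26b1, lie at ratios of 1.60 to 2.06, inside the band.

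The other genes of the pathway were read at their TSS regions. Of 32 other retinoid handling genes (31 in the annotation), 13 (40.6%) had a tested TSS region, against 59.3% of protein-coding genes. The 13 regions had a median log2 fold change of -0.32, against -0.21 over all 12647 tested TSS regions. At an unadjusted p of 0.05, 0 were higher and 1 lower, against 1.54% and 6.7% of all TSS regions. The lower one was Rdh14, a retinol dehydrogenase, at 35.0, 37.6, 19.8 and 21.0 CPM (log2 fold change -0.83 ± 0.24, edgeR adjusted p = 0.573). In 7 of the 13 both Fam5snv/snv libraries were below both WT libraries, against 37.8% of TSS regions, and in 0 were they above, against 10.4%. The highest per kb were Rdh10, the main embryonic retinol dehydrogenase (34.4 CPM per kb in a promoter shared with Rpl7, log2 fold change -0.33 ± 0.20), and Adh5 (30.5 CPM per kb, -0.37 ± 0.20).

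All 6 retinoid receptor genes had a tested TSS region, against 59.3% of protein-coding genes. The 10 regions had a median log2 fold change of 0.0010, against -0.21 over all tested TSS regions. At an unadjusted edgeR p of 0.05, 1 was higher (Rarb) and 1 lower (Rxrb), against 1.54% and 6.7% of all TSS regions. In 3 of the 10 both Fam5snv/snv libraries were above both WT libraries and in 2 both were below, against 10.4% and 37.8%. Rarb, a receptor gene that retinoic acid induces, was at 17.9 and 10.9 CPM in WT and 31.0 and 31.7 in Fam5snv/snv (1.12 ± 0.33, edgeR adjusted p = 0.573). Its called length was 736 and 1058 bp in WT and 2115 and 2193 bp in Fam5snv/snv, the same pairing of totals and lengths as in the Stra6 and Cyp26b1 windows. Rxrb, in a promoter shared with Slc39a7, was at 124, 105, 83.3 and 80.3 CPM (-0.48 ± 0.20, adjusted p = 0.576). The highest receptor regions per kb were Rxrb and the most downstream of 4 Rara regions, both at 26.7 CPM per kb, and the latter gave -0.19 ± 0.26 (SE). Neither list contained a region past an adjusted p of 0.05.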

How the data were processed

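Anti-NR2F1 single-cell CUT&Tag was read in 2 WT and 2 Fam5snv/snv libraries. The authors aligned to mm10 with Cell Ranger ATAC (the deposited matrix headers give software version 1.2.0) and called peaks in each library. The deposited matrices hold raw counts, 1 value for each peak and barcode (cut sites). Counts were summed over barcodes per library, since cells are not replicates, and over merged regions. Tested regions (35770 of 35809 with a peak in all 4 libraries) had 10 or more cut sites in 2 or more libraries, and held 74.1 to 99.5% of a library's cut sites.

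edgeR 4.0.16 (R 4.3.3) fitted a quasi-likelihood model with TMM normalization and Benjamini-Hochberg adjustment over all tested regions (common biological coefficient of variation 0.305, 2 residual degrees of freedom). The script was tested on simulated data. CPM use TMM-adjusted totals of the cut sites in tested regions, and CPM per kb divides by the called length in that library. TSS regions overlap 1 kb on either side of a protein-coding TSS in GENCODE M21. Sequences came from RefSeq GRCm38.p6, and not all repeats found are reported here. Named regions were the TSS regions of each gene, its highest region, those at unadjusted p under 0.05, and in the other retinoid lists those at that p and the 2 highest per kb. Marker lists were given by counts. Genes and lists were chosen with earlier results of these data known. The alternatives were other scalings, DESeq2 1.42.0, no filter, a replicate block, leaving out each library, an offset of called length, at least 50% coverage in every library, barcodes in place of cut sites, and other gene windows and merging.

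The same-numbered libraries carry no stated shared batch. Intervals and limits cover counting error or the spread between libraries only.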

Additional observations from a re-analysis of the deposited data

How the results depend on the processing

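Higher and lower calls at adjusted p 0.05 over all regions were 0 and 0 with edgeR, 366 and 194 with DESeq2, and 14 and 4 among the 8900 regions of which every library covered at least 50%. Leaving out 1 library gave 0 to 4094 higher and 0 to 2221 lower calls, where the lone library of a genotype was assumed to vary like the other genotype. Among the retinoid regions the same counts were 1 and 0 with DESeq2, and 0 to 3 higher and 0 to 1 lower without 1 library. Without WT replicate 1 the 3 higher were Cyp26b1 84554285, Stra6 58051522 and Stra6 58059488 (against 4.17% of all regions). Without WT replicate 2 they were Stra6 58051522, 58084231 and 58157368 (against 11.4%), the last with 0 cut sites in the other WT library, and the lower one was Crabp2 (against 6.21%). At an unadjusted p of 0.05 the 3 higher and 0 lower retinoid regions became 1 higher when scaled by all cut sites, 16 by barcodes, 5 with DESeq2, 1 under the coverage minimum, 0 higher and 2 lower with the length offset, and 1 to 7 higher and 0 to 3 lower without 1 library. A window of 50 kb gave 215 regions, 49 of them in all 4 libraries.

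Scaling by barcodes moved the median of all regions to 0.97 and the length offset moved it to -0.76, and log2 fold changes under them are given relative to it. With the offset the direction turned for Cyp26b1 84554285 (-0.32) and 84580632 (-0.14), Aldh1a3 (-0.0845), Stra6 58110414 (0.066) and 58132597 (-0.47), Rdh10 (0.18), Adh5 (0.026) and the downstream Rara region (0.41). Stra6 58110414 also turned when scaled by barcodes (0.0001), under the coverage minimum (0.28), with barcodes as the count (0.0465) and without WT replicate 1 (0.15). The Rara region turned under the coverage minimum (0.12) and without WT replicate 1 (0.0465), and the upstream Crabp1 region turned with barcodes as the count (0.013). Without 1 library in turn, log2 fold changes that crossed 0 ranged from -0.018 (without WT replicate 1) to 0.50 for Cyp26b1 84580632, from -0.064 (without WT replicate 2) to 0.82 for Aldh1a3, from -0.20 to 0.0755 (without WT replicate 2) for Crabp1 54763262, from -0.72 to 0.26 (without WT replicate 2) for Stra6 58128285, from -0.19 to 0.15 for Stra6 58110414, from -0.40 to 0.0465 for the Rara region, and from -0.52 to 0.095 (without Fam5snv/snv replicate 2) for the region shared by Cyp26a1 and Cyp26c1. Except where a setting's construction shows it, the cause was not tested.

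With the replicate number as a block, 0 regions passed in either direction, 3 retinoid regions were higher and 0 lower at unadjusted p 0.05, and no named direction turned. Deviations of same-numbered libraries correlated at 0.029, and the libraries share only a number. WT replicate 1 called 31 of the 128 retinoid regions and WT replicate 2, of similar depth (3083946 and 3580517 cut sites), called 82. Regions without a call in WT replicate 1 were not compared, and the cause of its fewer calls was not tested.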
